A study of Mus musculus with 13 samples.

Results

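Caspases and the genes of the apoptosome were followed in oocyte preparations of P5 CD-1 mice after γ-irradiation of the ovary. The 8 genes were chosen by name, with earlier results of these data known, as Apaf1, Casp2, Casp6, Casp8, Casp9, Xiap, Diablo and Cycs. All 8 were among the 49585 genes to which the reads of the 13 libraries were assigned. Ovaries were cultured overnight, irradiated with 0.5 Gy or 0.2 Gy, and oocytes were separated from follicular cells by trypsin and repeated centrifugation at 0 h (before irradiation) and at 1, 2.5, 4 and 6 h. The 0.5 Gy series comprised 8 libraries, in duplicate for 0 h, for 1 h and for 4 h but single for 2.5 h and for 6 h, from the first and the second generation of samples. The 0.2 Gy series comprised 5 libraries, 1 for each time point, all of the third generation, so that dose and generation cannot be told apart. Every library came from pooled ovaries, and no library of an unirradiated culture kept for the later times was analysed here. Late libraries (2.5, 4 and 6 h) were compared with early libraries (0 and 1 h). The single libraries of 2.5 and 6 h at 0.5 Gy were both of the second generation, so that generation was not balanced between late and early. These pooled time points are not replicates of 1 condition, and their p-values measure only the spread between these samples, part of which may be technical.

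Caspases are proteases that are made as inactive precursors and cut one another and other proteins when a cell enters apoptosis. In the mitochondrial pathway, cytochrome c leaves the mitochondrion and binds Apaf1, which assembles into a wheel-shaped complex, the apoptosome, that recruits and activates caspase-9. Caspase-9 then activates caspases further down the pathway, Xiap blocks caspases by direct binding, and Diablo (Smac) released from mitochondria takes Xiap off them. Damaged primordial oocytes die by this route after the p53 relative TAp63α has been activated. Since caspases are regulated largely by cleavage and assembly, an RNA level does not report their activity.

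The libraries held between 15709549 and 30430104 estimated reads, and each of the 8 genes was covered by at least 182 reads in every library. All 8 oocyte markers examined, such as Ddx4, Dazl and Gdf9, were above 0 in every library, with a summed level between 1716 and 2402 counts per 1000000 reads (CPM, normalized between libraries). Markers of granulosa cells, between 780 and 1798 CPM, and of stroma, between 1757 and 3484 CPM, were present as well. In such bulk samples, fewer cells of a type and less RNA per cell cannot be told apart. The cell type that the RNA of the 8 genes came from was not determined, and part of it may come from cells other than oocytes. The second 0 h library of 0.5 Gy stood apart, with 393 CPM of granulocyte markers against at most 15.6 in the other libraries and the lowest depth. Summed red blood cell markers were highest in both 4 h libraries of 0.5 Gy, at 5078 and 4703 CPM. The known damage responders Cdkn1a, a cell cycle inhibitor, and Mdm2, the ubiquitin ligase of p53, rose in late against early libraries of 0.5 Gy by a log2 fold change of 3.32 and 2.63 (edgeR, adjusted p = 0.0036 for both).

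On the TPM scale, which gives transcripts per 1000000 and corrects for length and so allows genes to be compared, the 8 genes fell into a high and a low group. Casp6, an executioner caspase, and Diablo had the highest mean levels, 37.8 ± 8.74 and 36.8 ± 7.12 TPM (SD, n = 13), and could not be ranked within this spread. Casp2, an initiator caspase that responds to genotoxic stress, followed with 18.2 ± 5.05 TPM, and its highest library overlapped the lowest libraries of Diablo and Casp6. The other genes lay clearly below, and the highest of their values, 7.01 TPM for Casp9, did not reach the lowest value of Casp2, 9.08 TPM. Within this low group the means were 5.29 ± 0.97 TPM for Casp9, 4.74 ± 0.84 for Xiap, 4.24 ± 1.07 for Cycs, 3.60 ± 0.95 for Casp8 and 3.37 ± 1.22 for Apaf1 (SD, n = 13). Each neighbour in this order overlapped the next, so that the scaffold Apaf1 and the initiator Casp8 shared the lowest position. The place of Cycs is less certain, in this order and in the low group. Reads from the sequence it shares with Gm10053, described below, may have been assigned to either gene. The quantity that varied most between libraries was the level of Cycs and of Apaf1, whose CPM had coefficients of variation of 30.7% and 29.7%, and Diablo varied least with 12.7%.

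**Figure D1:**
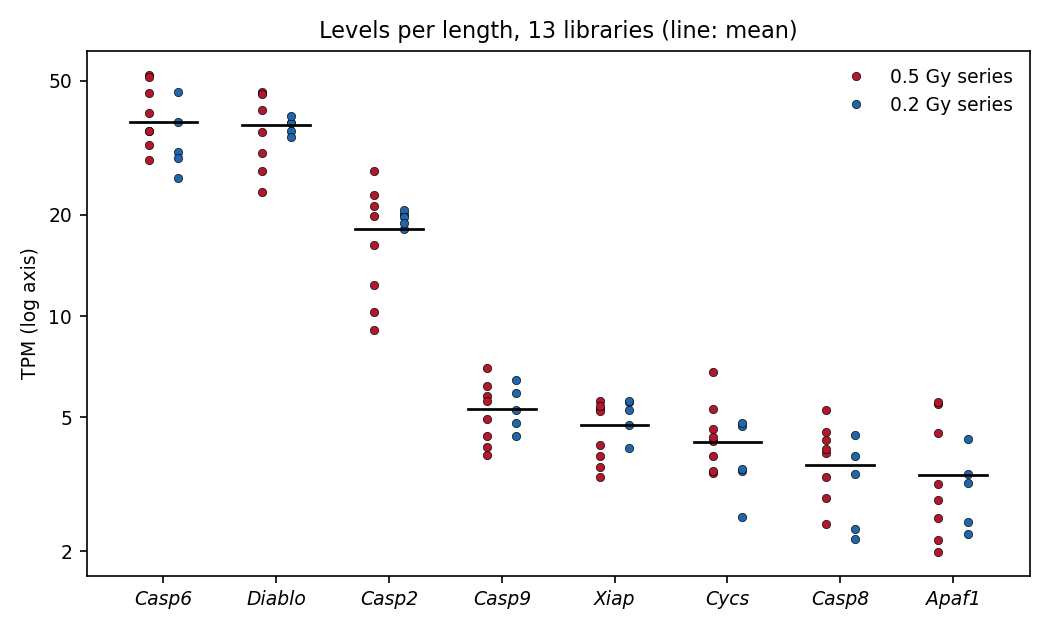
TPM of the 8 genes (log axis) in each of the 13 libraries, with the 0.5 Gy libraries in red, the 0.2 Gy libraries in blue and the mean over all libraries as a line. Casp6, Diablo and Casp2 lie above 9 TPM in every library, and the other genes stay at or below 7.01 TPM.

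Apaf1 and Cycs encode the partners whose binding starts the apoptosome, and their promoters are shown because these genes had the largest differences over time, in the same direction at 0.2 Gy and in opposite directions at 0.5 Gy. The 250 bases before each start are given from RefSeq on GRCm38.p6, on the strand of the gene. Capitals mark matches, on either strand, to the letters GCATGCGC, the core of sites bound by NRF-1 (a regulator of genes for mitochondrial proteins), and to the letters TGACGTCA of the cyclic AMP response element (CRE).
Apaf1, chr10:91082744-91082993, minus strand: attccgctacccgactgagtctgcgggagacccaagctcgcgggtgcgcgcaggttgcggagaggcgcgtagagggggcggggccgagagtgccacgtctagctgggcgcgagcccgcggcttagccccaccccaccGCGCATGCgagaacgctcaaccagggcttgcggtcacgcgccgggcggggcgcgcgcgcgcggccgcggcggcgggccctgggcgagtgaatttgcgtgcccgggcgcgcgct
Cycs, chr6:50566570-50566819, minus strand: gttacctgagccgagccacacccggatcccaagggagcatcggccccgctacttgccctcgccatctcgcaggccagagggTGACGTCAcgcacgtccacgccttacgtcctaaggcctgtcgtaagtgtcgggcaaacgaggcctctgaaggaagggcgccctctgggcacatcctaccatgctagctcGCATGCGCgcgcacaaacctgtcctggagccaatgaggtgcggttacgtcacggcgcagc
The NRF-1 core was found in both promoters and in none of the other 6 genes, and 2.26% of 32841 promoters of this length held it. The CRE was found in Cycs alone of the 8 genes, and in 1.55% of all promoters. A GC box (GGGCGG, either strand) was found for 6 of the 8 genes and in 32.7% of all promoters. The half-site consensus of the p53 family had no match in these windows for any of the 8 genes and matched 7.13% of all promoters. These matches are letters in a window and not sites shown to be bound.

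Apaf1 (chromosome 10, 90989311-91082770, minus strand) is the scaffold of the apoptosome. In the 0.5 Gy series its level was 20.4 and 12.0 CPM in the 0 h libraries, 25.2 and 19.4 CPM at 1 h, 28.6 CPM at 2.5 h, 29.0 and 25.2 CPM at 4 h and 32.6 CPM at 6 h. Late libraries were all higher than early ones, although the groups met at 25.2 CPM, where the highest early and the lowest late library lay side by side. The mean was 19.3 ± 5.43 CPM early and 28.9 ± 3.06 CPM late (SD, n = 4), a log2 fold change of 0.57 with a standard error of 0.22 (edgeR, adjusted p = 0.48). The lowest value came from the 0 h library with granulocyte markers, and without this library the log2 fold change was 0.41. In the 0.2 Gy series Apaf1 was 12.9, 15.1, 16.2, 22.6 and 22.8 CPM over the 5 time points in order. Here too both libraries of 4 and 6 h were above both early libraries (log2 fold change 0.67, standard error 0.31, edgeR adjusted p = 0.68). The difference between the doses was 0.09 with a standard error of 0.38 on the log2 scale.

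Cycs (chromosome 6, 50562563-50566538, minus strand) encodes somatic cytochrome c, the electron carrier that turns into the activator of Apaf1 in the cytosol. At 0.5 Gy its level was 62.4 and 64.6 CPM at 0 h, 62.1 and 39.4 CPM at 1 h, 37.4 CPM at 2.5 h, 36.6 and 41.1 CPM at 4 h and 31.1 CPM at 6 h. Of the 4 early libraries, 3 stood above all late ones, and the remaining one, 1 h of the second generation, lay within the late range. The mean was 57.1 ± 11.9 CPM early and 36.5 ± 4.12 CPM late (SD, n = 4), a log2 fold change of -0.67 with a standard error of 0.19 (edgeR, adjusted p = 0.33). By limma on the TPM scale it was smaller, at -0.37. In the 0.2 Gy series Cycs ran the other way, through 30.1, 25.8, 33.5, 45.7 and 54.1 CPM over the 5 time points in order. Both libraries of 4 and 6 h were above both early ones, with a log2 fold change of 0.81 and a standard error of 0.27 (edgeR, adjusted p = 0.64), or 0.54 by limma on the TPM scale. The series already differed at 0 h, before any irradiation, where the 0.2 Gy library held 30.1 CPM and the 0.5 Gy libraries 62.4 and 64.6 CPM.

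The reads of Cycs are shared with a near copy. Of the 30-base sequences in its transcripts, 29.4% were also found in other genes, most of them in Gm10053, a retrogene on chromosome 19 (24875686-24876631, plus strand) that is annotated as protein-coding. Reads of such length from the common stretch cannot be assigned to either gene with certainty. Gm10053 was assigned more reads than Cycs in every library, between 81.3 and 150 CPM. The early libraries of 0.5 Gy held 150, 124, 148 and 89.6 CPM of Gm10053, and the late ones 84.3, 110, 99.0 and 81.3 CPM. The lowest early value, from the second 1 h library, lay within the late range. In the 0.2 Gy series Gm10053 ran through 89.4, 85.0, 96.5, 92.4 and 145 CPM in order of time. Its rise there rested on the 6 h library alone, whereas Cycs was already higher in the 4 h library. With both genes added together, the log2 fold change was -0.53 at 0.5 Gy (edgeR, adjusted p = 0.44) and 0.52 at 0.2 Gy (adjusted p = 0.71), so that the opposite directions were kept at a smaller size. This sum was chosen after the values had been seen.

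**Figure D2:**
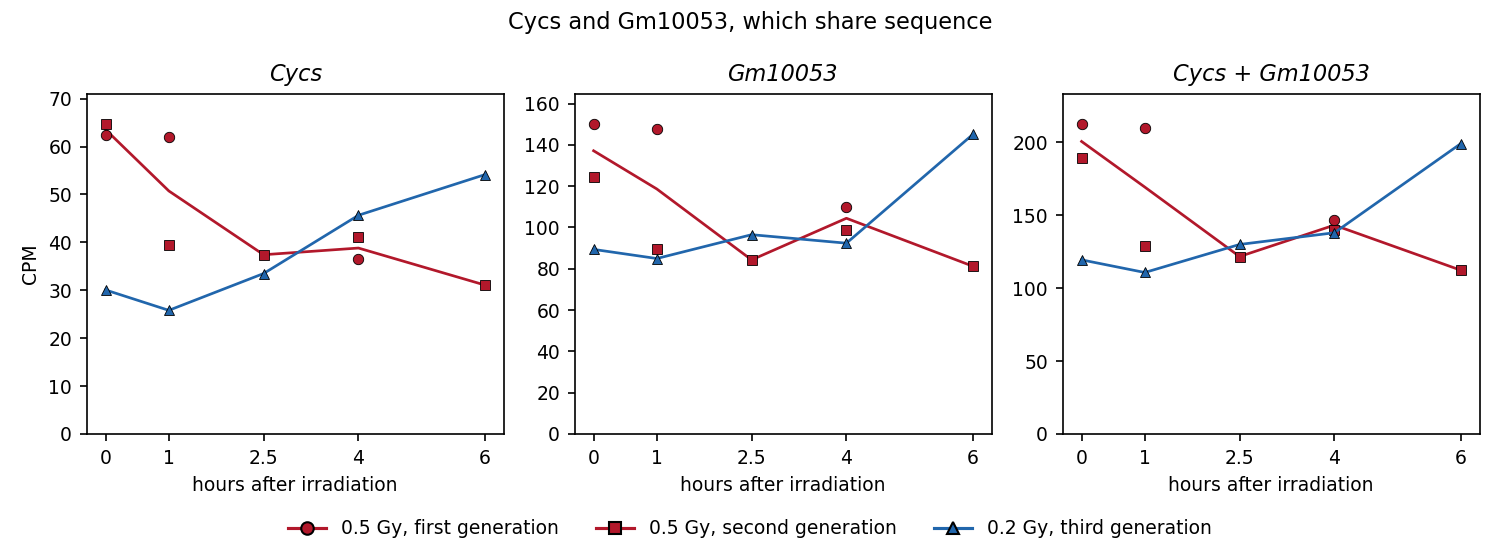
CPM of Cycs, of Gm10053 and of their sum (vertical axes) against hours after irradiation, with 1 point for each library and a line through the mean at each time. In all 3 panels the 0 h libraries of 0.5 Gy lie above the 0 h library of 0.2 Gy, and the 6 h libraries lie in the reverse order.

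Casp9 (chromosome 4, 141793612-141815976, plus strand), the initiator caspase activated on the apoptosome, was 24.8 and 30.7 CPM at 0 h, 22.4 and 23.2 CPM at 1 h, 35.4 CPM at 2.5 h, 27.8 and 41.7 CPM at 4 h and 33.1 CPM at 6 h of 0.5 Gy. The first-generation 4 h library fell within the early range, and the other late libraries were above it. The mean was 25.3 ± 3.72 CPM early and 34.5 ± 5.75 CPM late (SD, n = 4), a log2 fold change of 0.42 with a standard error of 0.19 (edgeR, adjusted p = 0.54), or 0.26 with sums corrected for transcript length. At 0.2 Gy the levels of 26.2, 30.9, 26.9, 33.3 and 24.7 CPM from 0 to 6 h had no direction, and the log2 fold change was -0.00 with a standard error of 0.27.

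Casp2 (chromosome 6, 42264985-42282508, plus strand), which is activated on the PIDDosome, was between 74.6 and 103 CPM in the early libraries of 0.5 Gy and between 89.9 and 128 CPM in the late ones. These ranges overlapped, and the log2 fold change was 0.29 with a standard error of 0.16 (edgeR, adjusted p = 0.63). It was larger with sums corrected for transcript length, at 0.54, and by limma on the TPM scale, at 0.57. At 0.2 Gy it stayed between 90.8 and 109 CPM, with a log2 fold change of -0.04 and a standard error of 0.22. The second generation was higher than the first at each matched time of 0.5 Gy, with 95.1 against 83.4 CPM at 0 h, 103 against 74.6 CPM at 1 h and 128 against 89.9 CPM at 4 h.

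Casp8 (chromosome 1, 58795374-58847503, plus strand), the initiator caspase of death receptors, was 16.8 and 24.7 CPM at 0 h, 24.6 and 25.9 CPM at 1 h, 17.1 CPM at 2.5 h, 17.6 and 25.1 CPM at 4 h and 22.3 CPM at 6 h of 0.5 Gy. The groups overlapped over most of their range, and the log2 fold change was -0.18 with a standard error of 0.21 (edgeR, adjusted p = 0.83), or -0.10 by limma on the TPM scale. At 0.2 Gy Casp8 was 12.5 CPM at 0 h and 12.9 at 1 h, below every library of 0.5 Gy, and 23.8, 17.4 and 22.7 CPM at 2.5, 4 and 6 h. The log2 fold change of the 4 and 6 h libraries was 0.63 with a standard error of 0.28 (edgeR, adjusted p = 0.68).

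Casp6 (chromosome 3, 129901425-129914103, plus strand), an executioner caspase that cuts nuclear lamins, was 121 and 99.8 CPM at 0 h, 127 and 92.1 CPM at 1 h, 127 CPM at 2.5 h, 157 and 166 CPM at 4 h and 105 CPM at 6 h of 0.5 Gy. Both 4 h libraries were above the rest of this series, and the 6 h library was back within the early range. The log2 fold change of late against early libraries was 0.32 with a standard error of 0.18 (edgeR, adjusted p = 0.63). At 0.2 Gy the level was 85.8, 83.7 and 82.1 CPM at 0, 1 and 2.5 h and 132 and 139 CPM at 4 and 6 h. Both later libraries thus stood apart from the first 3 time points, with a log2 fold change of 0.65 and a standard error of 0.24 against 0 and 1 h (edgeR, adjusted p = 0.65).

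Xiap (chromosome X, 42059679-42109656, plus strand), the inhibitor that binds caspases directly, was 83.0 and 108 CPM at 0 h, 88.9 and 87.4 CPM at 1 h, 81.0 CPM at 2.5 h, 79.3 and 63.5 CPM at 4 h and 66.3 CPM at 6 h of 0.5 Gy. Every late library was below every early one, with means of 72.5 ± 8.88 and 91.8 ± 10.9 CPM (SD, n = 4) and a log2 fold change of -0.36 with a standard error of 0.16 (edgeR, adjusted p = 0.53). The highest value came from the 0 h library with granulocyte markers, and without it the log2 fold change was -0.25. With sums corrected for transcript length the log2 fold change was -0.04. On the TPM scale, with limma, it was 0.03, so that the direction at 0.5 Gy did not hold across units. At 0.2 Gy Xiap was 64.6, 67.0, 95.9, 81.6 and 82.3 CPM over the 5 time points in order, and the 4 and 6 h libraries were above both early ones (log2 fold change 0.29, standard error 0.20, adjusted p = 0.78).

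Diablo (chromosome 5, 123509765-123524176, minus strand), the mitochondrial antagonist of Xiap, was 109 and 122 CPM at 0 h, 105 and 101 CPM at 1 h, 142 CPM at 2.5 h, 133 and 145 CPM at 4 h and 136 CPM at 6 h of 0.5 Gy. All 4 late libraries were above the 4 early ones with a gap wider than those of Apaf1 and Xiap, the other genes whose groups did not overlap at this dose. The mean was 109 ± 9.05 CPM early and 139 ± 5.28 CPM late (SD, n = 4), a log2 fold change of 0.32 with a standard error of 0.14 (edgeR, adjusted p = 0.51). At 0.2 Gy the levels were 106, 113, 109, 120 and 108 CPM from 0 to 6 h and overlapped, with a log2 fold change of 0.04 and a standard error of 0.18. Of the 30-base sequences of Diablo, 39.5% were also found in other genes, with 20.5% in B3gnt4, which lies on the opposite strand, and 18.3% in Gm49027, which overlaps Diablo on the same strand. B3gnt4 was assigned at most 3.20 CPM and Gm49027 at most 0.56 CPM in any library. The log2 fold change of Diablo at 0.5 Gy was 0.32 with the reads of B3gnt4 and 0.33 with those of Gm49027, sums chosen after the values had been seen.

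**Figure D3:**
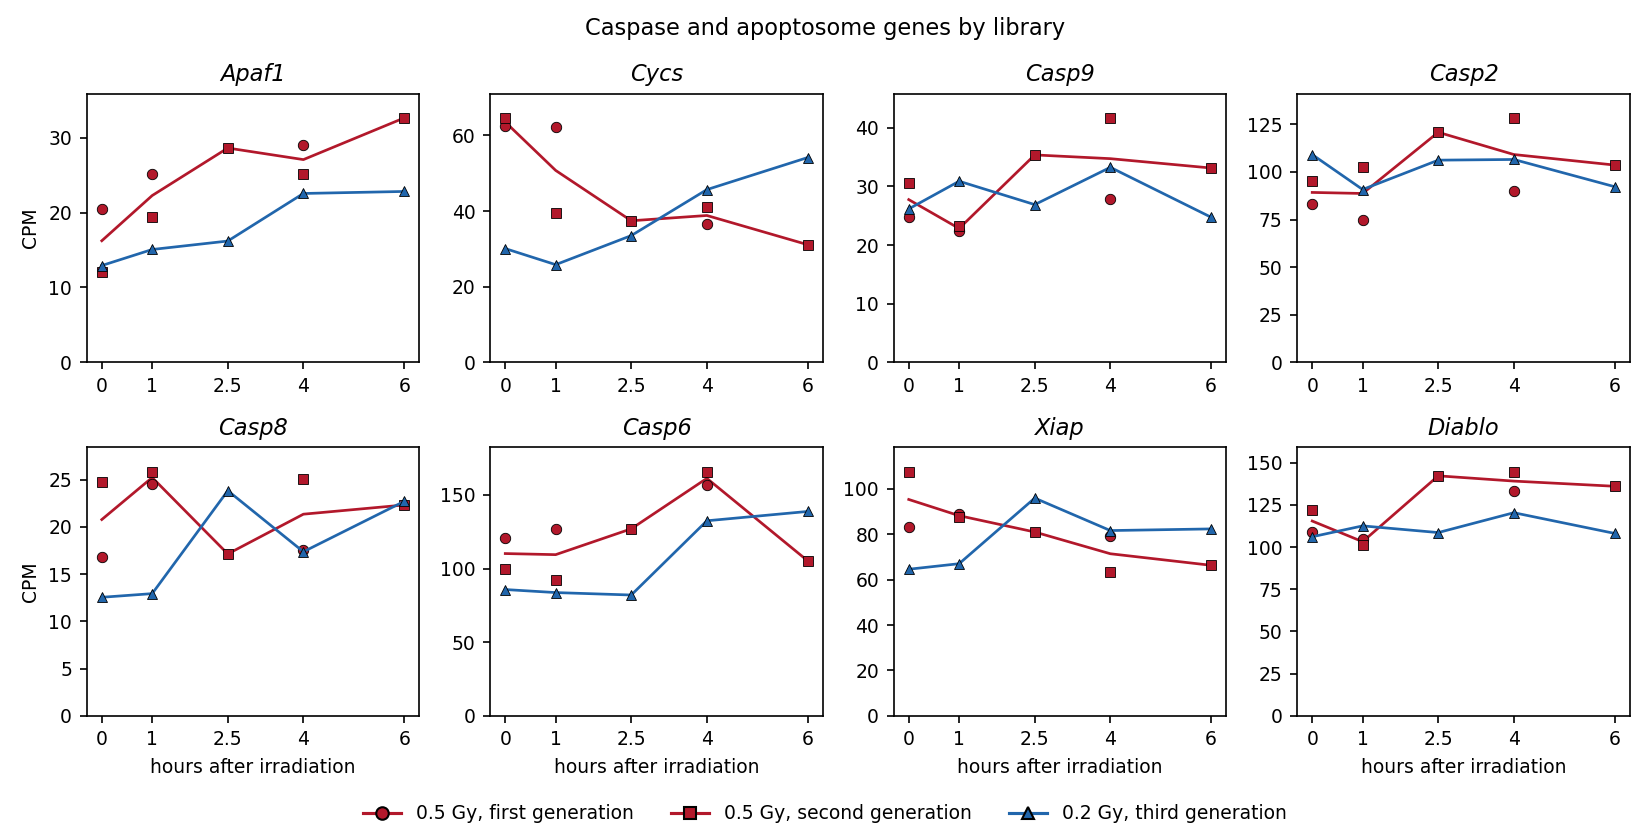
CPM (vertical axes, from 0) of the 8 genes against hours after irradiation, with 1 point for each library, shaped by generation, and a line through the mean at each time for 0.5 Gy (red) and 0.2 Gy (blue). Apaf1 is higher late than early at both doses, and Diablo is above 133 CPM in the late libraries of 0.5 Gy alone. In CPM, Cycs and Xiap run in opposite directions at the 2 doses, which for Xiap did not hold on the TPM scale.

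None of the 8 genes passed the test in late against early libraries of 0.5 Gy (an adjusted p below 0.05 together with a change of more than 1 on the log2 scale), where 0.128% of all 22588 genes tested were called. At an unadjusted p under 0.05, edgeR gave 5 of the 8 genes (Apaf1, Casp9, Xiap, Diablo and Cycs), beside 9.06% of all genes. Since the 8 genes were chosen with earlier results of these data known, such counts describe them and do not test them as a set. DESeq2 called 0 and gave 5 at an unadjusted p under 0.05, beside 2278 of the 22588 genes tested. Limma on log2 TPM called 0 and gave 2, beside 1753 of these genes. With sums corrected for transcript length edgeR gave 2, beside 1766 of 22823 genes. With each library left out edgeR gave between 2 and 6, beside between 1501 and 2574 of all genes. The log2 fold change was positive for 5 and negative for 3 of the 8 genes, with a median of 0.31 beside -0.02 over all genes tested. The late libraries lay wholly above the early ones for 2 of the 8 genes (Apaf1 and Diablo), beside 3.18% of all genes, and wholly below for 1 (Xiap), beside 2.04%. The largest unadjusted p among the called genes was 6.0e-05 and the smallest change 1.20 on the log2 scale, above the estimate of every one of the 8 genes.

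Each later time of 0.5 Gy was also compared with 0 h. These comparisons share the 0 h libraries, and 2.5 and 6 h rest on 1 library each. The shared 0 h libraries include the one with granulocyte markers. It held the lowest Apaf1, 12.0 CPM, and the highest Cycs, 64.6 CPM, of the 0.5 Gy series. None of the 8 genes was called at 1, 2.5, 4 or 6 h, and edgeR called 0% of the 28468 genes tested at each time. At an unadjusted p under 0.05, edgeR gave 0 of the 8 genes at 1 h, 0 at 2.5 h, 1 at 4 h (Cycs) and 2 at 6 h (Apaf1 and Cycs), beside 3.98%, 5.59%, 5.82% and 5.94% of all genes. At 1 h and 4 h, the times with 2 libraries, DESeq2 gave 0 and 1, beside 991 and 1528 of the 28468 genes. Limma gave 0 at both, beside 1154 and 1483. Relative to 0 h, the estimates of Apaf1 were 0.45, 0.81, 0.74 and 1.03 on the log2 scale at the 4 later times in order, and their standard errors 0.35, 0.41, 0.35 and 0.41. Those of Cycs were -0.34, -0.77, -0.72 and -1.01, and their standard errors 0.30, 0.38, 0.30 and 0.38. The scaffold and its activator thus had the largest estimates of the 8 genes at 6 h, with opposite signs, and neither passed the test after adjustment (edgeR, adjusted p = 0.83 for Apaf1 and 0.82 for Cycs).

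In the 0.2 Gy series, none of the 8 genes was called between 4 and 6 h and 0 and 1 h, where 0.0462% of 28162 genes were. At an unadjusted p under 0.05, edgeR gave 4 of the 8 genes (Apaf1, Casp6, Casp8 and Cycs), all higher at 4 and 6 h, beside 7.29% of all genes. DESeq2 called 0 and gave 4, beside 2292 of the 28162 genes, and limma called 0 and gave 0, beside 2442. With sums corrected for transcript length edgeR gave 2, beside 1792 of 28176 genes. Among protein-coding genes alone it gave 2, beside 1208 of 19048. The median log2 fold change of the 8 genes was 0.46 beside -0.03 over all genes tested. With 2 libraries on each side, groups that do not overlap are common. The later libraries were wholly above the early ones for 5 of the 8 genes (Apaf1, Casp6, Casp8, Xiap and Cycs), beside 21.8% of all genes, and wholly below for 0, beside 25.2%. Casp2, Casp9 and Diablo overlapped.

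The difference between the doses, taken as the change at 0.2 Gy minus that at 0.5 Gy over 4 and 6 h against 0 and 1 h, was called for 0 of the 8 genes by edgeR, where 0.032% of all genes were. At an unadjusted p under 0.05 edgeR gave Cycs and Xiap, beside 8.14% of all genes. For Cycs the difference was 1.48 on the log2 scale with a standard error of 0.34 (edgeR, adjusted p = 0.38). DESeq2 called this gene, with 1.52 and an adjusted p of 0.012, and called 114 of the 28162 genes tested, where edgeR called 9. At an unadjusted p under 0.05 DESeq2 gave 3 of the 8 genes, beside 2604 of all genes. Limma called 0 and gave 1, beside 2319. With the reads of Gm10053 added, the difference was 1.02 (edgeR, adjusted p = 0.54). For Xiap the difference was 0.70 with a standard error of 0.26 (edgeR, adjusted p = 0.56). For both genes the early libraries of the 2 series differed as well, and the 0.2 Gy levels at 0 and 1 h lay within or below the range reached late after 0.5 Gy. The other genes had estimates of 0.73 for Casp8, 0.29 for Casp6, 0.09 for Apaf1, -0.28 for Diablo, -0.29 for Casp2 and -0.42 for Casp9, with standard errors between 0.22 and 0.38. By limma on the TPM scale the difference was 0.97 for Cycs, 0.32 for Xiap, 0.05 for Casp6 and -0.53 for Casp2.

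**Figure D4:**
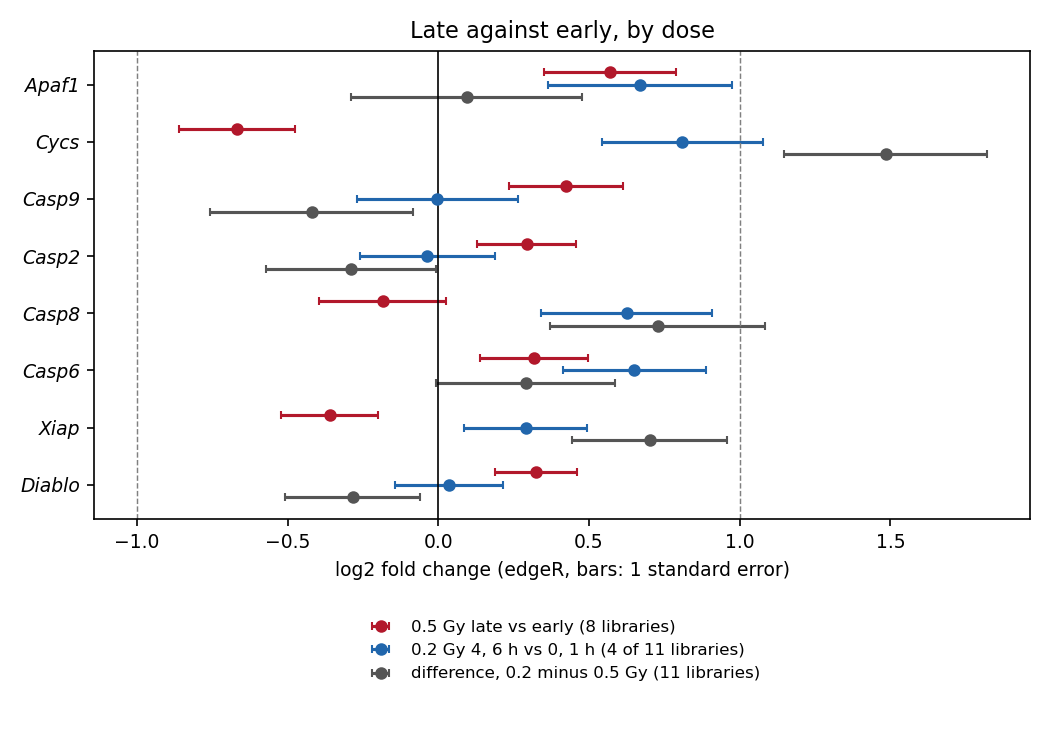
Log2 fold change (horizontal axis, edgeR, bars of 1 standard error) of the 8 genes in late against early libraries of 0.5 Gy (red). Blue points give 4 and 6 h against 0 and 1 h of 0.2 Gy. Grey points give the difference between doses from the fit without 2.5 h, and so are not exactly blue minus red. Apaf1 lies near 0.6 at both doses, Cycs lies at -0.67 and 0.81, and dashed lines mark the limit of 1 used for a call.

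The reads of most genes came from a single leading transcript. It held a mean of 99.0% of the reads for Cycs (Cycs-202) and 93.6% for Casp2 (Casp2-201), where a single mRNA made up nearly all of the estimate. For Casp6, Casp9, Casp8, Apaf1 and Diablo the leading share was 83.1%, 78.7%, 75.8%, 68.0% and 64.8%. The share of Apaf1-202 fell to 24.8% in the second 0 h library of 0.5 Gy and reached 83.4% in the first. Xiap was divided among Xiap-207 (a mean of 41.9%, between 25.8% and 60.9%), Xiap-204 (24.1%) and Xiap-202 (22.2%). Xiap-207 is annotated as a processed transcript and not as protein-coding, while Xiap-204 and Xiap-202 are annotated as protein-coding. Of the 8 genes, Xiap thus had the lowest leading share, and it is the gene whose direction at 0.5 Gy differed between CPM and TPM. A link between these observations was not tested.

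Across the 13 libraries, the log2 levels of the 8 genes moved in pairs to different degrees, given here as a description, since the libraries share dose, time and generation. The highest Pearson r was between Casp9 and Diablo (0.86), followed by Casp2 with Casp9 (0.72) and Apaf1 with Casp6 (0.70). The lowest was between Casp2 and Cycs (-0.46). Among 15059 protein-coding genes with at least 1 CPM on average, the patterns most like that of Apaf1 were those of Ctdspl (r = 0.94), Kank3 (r = 0.94) and Fat1 (r = 0.92) over the same 13 libraries.

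The rest of the pathway was followed in 34 further genes, in 6 lists, all of which were tested at both doses. These lists too were chosen with earlier results of these data known. None was called by edgeR in late against early libraries of 0.5 Gy or at 0.2 Gy. At an unadjusted p under 0.05 there were 5 of 34 (14.7%) at 0.5 Gy, beside 9.06% of all genes, and 3 of 34 (8.82%) at 0.2 Gy, a share near the 7.29% of all genes. DESeq2 gave 6 and 4, beside 2278 of 22588 and 2292 of 28162 genes. DESeq2 called 1 of the 34 at 0.5 Gy, Pidd1, where it called 123 of all genes and edgeR 29, and 0 at 0.2 Gy. Limma called 0 at either dose and gave 2 and 2, beside 1753 and 2442 of all genes. Pidd1, the scaffold that activates caspase-2 in the PIDDosome, was between 3.87 and 5.64 CPM in the early and between 10.2 and 33.5 CPM in the late libraries of 0.5 Gy, without overlap. Its log2 fold change of 1.95 with a standard error of 0.37 was the largest among the 34 genes (edgeR, adjusted p = 0.094), and at 0.2 Gy it was 0.20 with a standard error of 0.42. The difference between the doses was -1.96 with a standard error of 0.53 (edgeR, adjusted p = 0.50). Dose and generation cannot be told apart in it. At 0.2 Gy Pidd1 held 7.72 and 7.65 CPM at 0 and 1 h. At 4 h of 0.5 Gy Pidd1 was 11.5 CPM in the first and 33.5 CPM in the second generation. Its partner Cradd, which links Pidd1 to caspase-2, had a log2 fold change of -0.10, and the lowest value of this list was -0.34 for Ripk1, a kinase of death receptor complexes.

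Among substrates and nucleases, Dffb, the nuclease that cuts DNA between nucleosomes, had the largest estimate (1.10, standard error 0.30, edgeR adjusted p = 0.30), from 6.25 ± 1.46 CPM early to 13.5 ± 3.98 CPM late (SD, n = 4). The lowest was -0.04 for Endog, a mitochondrial nuclease. Of the other caspases, Casp14 was at 0.59 with a standard error of 0.73 and Casp12 at -0.64 with a standard error of 0.29. Casp14 was low, at 0.40 CPM in the early libraries on average, and its highest late value, 1.48 CPM, came from the 6 h library. The inhibitors of apoptosis ranged from -0.38 for Naip5 to 0.49 for Naip2, with standard errors of 0.68 and 0.70. Both were low, at 1.03 and 0.69 CPM in the early libraries on average, and 52.5% and 32.6% of their 30-base sequences were found in other Naip genes as well. The antagonists of inhibitors were led by Sept4, whose ARTS form binds Xiap, at 0.60 (adjusted p = 0.47), with the lowest value, 0.21, for Htra2. All 6 partners of cytochrome c and the apoptosome had negative estimates at 0.5 Gy, between -0.30 for Aven and -0.07 for Ptma. Negative estimates were found there for 11650 of all 22588 genes tested. At 0.2 Gy 5 of these 6 were positive, beside 13440 of all 28162 genes tested. None of these 6 reached an unadjusted p under 0.05 at either dose. The medians over all 34 genes were -0.01 at 0.5 Gy and 0.17 at 0.2 Gy, beside -0.02 and -0.03 over all genes tested.

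**Figure D5:**
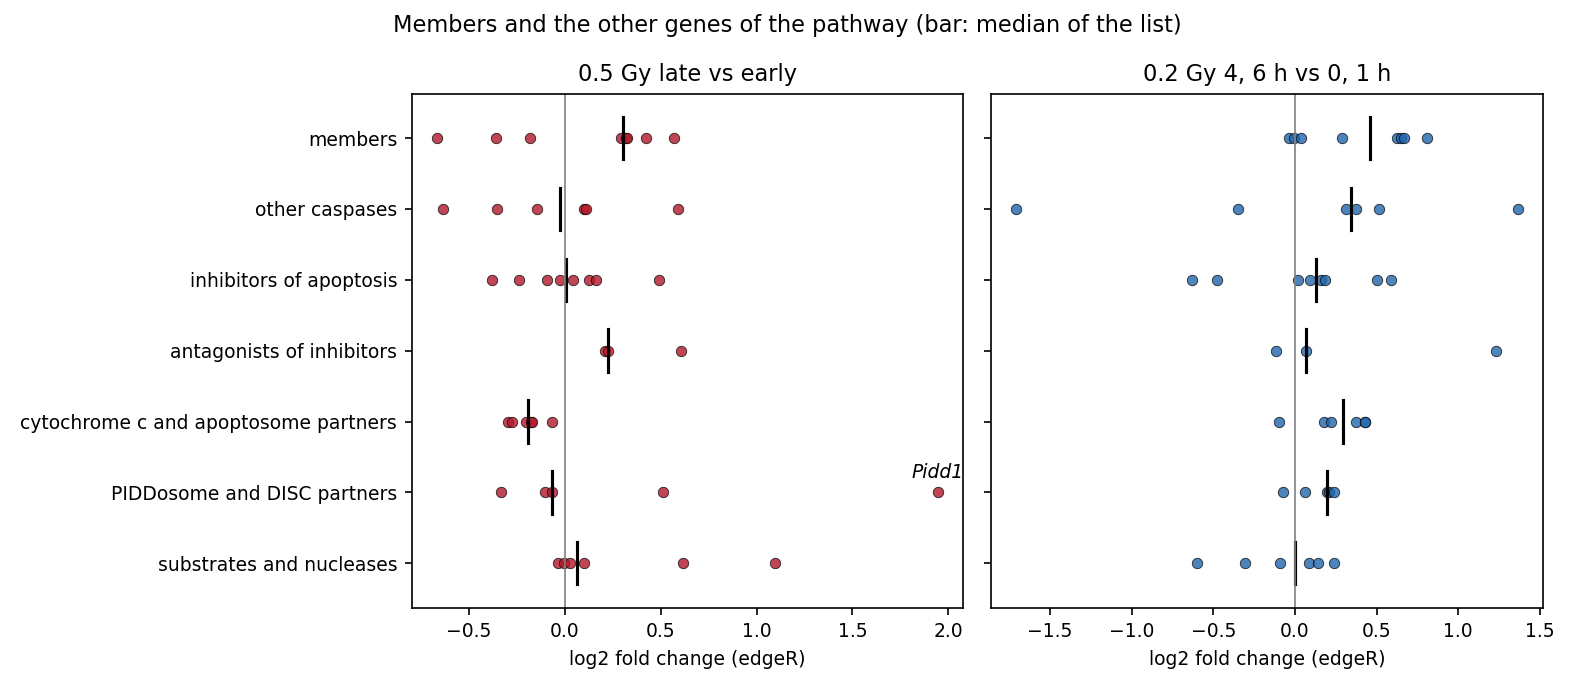
Log2 fold change (horizontal axes, edgeR) of each of the 8 genes and of the 34 further pathway genes, 1 point for each gene, by list, at 0.5 Gy (red) and at 0.2 Gy (blue), with the median of each list as a bar. Pidd1 at 1.95 stands apart at 0.5 Gy. The 6 partners of cytochrome c and the apoptosome lie below 0 there, as do 11650 of all 22588 genes tested.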

How the data were processed

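RNA was sequenced as 30-base reads from 13 libraries. The authors estimated the expected counts of each transcript with salmon on Ensembl transcripts of GRCm38 and deposited them per library, and the deposited TPM come from the same step. Neither is normalized between libraries. The 5 deposited tables of the authors' own comparisons and merged values were not used.

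Counts were summed per gene with the GENCODE annotation of GRCm38 and rounded, which left out 402 transcripts without a gene there, or at most 0.495% of the reads. Genes with low counts were removed by edgeR's filterByExpr. Differences were tested with edgeR 4.0.16 in R 4.3.3 (TMM normalization, quasi-likelihood F test, Benjamini-Hochberg adjustment over all genes tested) and a gene was called where the adjusted p was below 0.05 and its change exceeded 1 on the log2 scale. The 0.5 Gy comparisons used the 8 libraries of that dose, and 0.2 Gy and the difference between doses came from a fit of the 11 libraries without 2.5 h. Levels in CPM were normalized over all 13 libraries. Alternatives were DESeq2 1.42.0, limma 3.58.1 on log2(TPM + 1), other sums, filters and scalings, and leaving out each library. The fits were tested on simulated data. Sequences shared between genes were counted as 30-base matches between transcripts.

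The 8 genes and the lists were chosen with earlier results of these data known. All 8 genes are described. Of each list, the genes with the highest and the lowest estimate in late against early libraries of 0.5 Gy and any called gene are named, as are the 3 genes most like Apaf1. Cradd is named besides, after its values were seen. Results of some members of the lists are not reported here by name. Whether the libraries keep the strand is not given in the sources used here. The depth limits precision, and intervals from counts would cover counting error only.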

Additional observations from a re-analysis of the deposited data

Results flagged for a closer look

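In the early libraries of 0.5 Gy, Cycs was at 39.4 CPM in the 1 h library of the second generation, against 62.1 to 64.6 CPM in the other 3, a gap that took up 90.0% of the range of the group. Casp8 was at 16.8 CPM in the 0 h library of the first generation, against 24.6 to 25.9 CPM in the other 3, a gap of 85.9% of the range. Both gaps exceed Dixon's critical value, as chance alone gives in about 5% of such groups, and 16 groups of 4 libraries were examined. Without the second 1 h library the log2 fold change of Cycs at 0.5 Gy was -0.80, and without the first 0 h library that of Casp8 was -0.30.

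In CPM, every late library of 0.5 Gy was below every early one for Xiap, while at 0.2 Gy both libraries of 4 and 6 h were above both early ones. The log2 fold change of Xiap at 0.5 Gy was -0.04 with sums corrected for transcript length and 0.03 by limma on the TPM scale. The difference between the doses was 0.70 on the log2 scale and did not pass the test after adjustment (edgeR, adjusted p = 0.56). Dose and generation cannot be told apart in it.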

How the results depend on the processing

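None of the 8 genes was called under any alternative, and none with any library left out (lowest and highest count 0), except Cycs in the difference between doses, where DESeq2 called 1 gene. Of the 34 pathway genes 0 were called in late against early libraries of 0.5 Gy, except 1 (Pidd1) with no filter and 1 (Pidd1) by DESeq2. A call at an adjusted p alone added none. Of 417 re-estimated log2 fold changes of the 8 genes, 400 kept their direction. The 17 that changed it lay between -0.093 and 0.20. At 0.5 Gy, Xiap was 0.026 by limma and -0.36 by edgeR. At 0.2 Gy, Casp2 was 0.087 with length-corrected sums, 0.018 by limma and between -0.16 and 0.16 with each library left out. Casp9 there was 0.032 with RLE size factors, 0.016 with no filter, 0.028 by DESeq2, 0.018 with length-corrected sums and between -0.24 and 0.20 with each library left out. Diablo there was -0.031 by limma, -0.0056 among protein-coding genes alone and between -0.055 and 0.12 with each library left out. The difference between doses of Apaf1 was -0.093 by limma and between -0.058 and 0.22 with each library left out. The cause was not tested. Unlike the 8 genes, the number of all genes called moved widely, at 0.5 Gy from 29 to 58 with no filter, 123 by DESeq2 and 5 by limma, at 0.2 Gy from 13 to 32, 129 and 63, and in the difference from 9 to 22, 114 and 39. Among protein-coding genes alone it was 32, 1 and 0 (edgeR, with 1539 genes at an unadjusted p under 0.05 in the last). With each library left out it lay between 10 and 37 at 0.5 Gy, 1 and 18 at 0.2 Gy and 0 and 13 in the difference. The lowest values were 10 without the first 0 h, the second 4 h or the 6 h library of 0.5 Gy, 1 without the 1 h library of 0.2 Gy, and 0 without the 0 h library of 0.2 Gy (edgeR, with 1693 genes at an unadjusted p under 0.05). The shares of all genes called given beside the 8 genes move with these counts.

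Replicate numbers of 0.5 Gy name generations, and the labels do not say that a generation is a batch. Deviations from the time means of same-numbered libraries correlated at 0.12 for 0 and 1 h, 0.076 for 0 and 4 h and 0.11 for 1 and 4 h, so not every pair exceeded 0.1. With a replicate block 0 of the 8 genes and 0 of the 34 pathway genes were called at 0.5 Gy, and 18 of all genes in place of 29. The log2 fold changes with this block were 0.67 for Apaf1, 0.21 for Casp2, 0.40 for Casp6 and -0.25 for Casp8. They were 0.35 for Casp9, -0.37 for Xiap, 0.31 for Diablo and -0.63 for Cycs.

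Changes below 1 on the log2 scale cannot be called under this rule at any depth, and 0 of the 8 genes passed without that limit. Standard errors of the 8 genes were between 0.14 and 0.22 at 0.5 Gy and between 0.18 and 0.31 at 0.2 Gy.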
